A study of Mus musculus with 11 samples.

Results

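*Cirbp*, measured as the transcript row uc007gce.1, was examined in ribosome-associated RNA from the hippocampus of sleep deprived (SD) and non-sleep deprived (NSD) mice. It is 1 of the 63244 transcript rows of the count table and 1 of the 29599 rows detected (1 count or more) in 5 or more libraries. The row was selected on its measured values, because its level was lower after sleep deprivation. Its own difference between the groups is therefore described without a test, and tests are kept for variation among the libraries of a group.

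All mice were male CaMKIIα-Cre:RiboTag animals of 2 to 3 months, in which Cre under the CaMKIIα promoter switches on an HA-tagged Rpl22 ribosomal protein in excitatory neurons. SD mice were kept awake by gentle handling for 5 h from the start of the light phase, and NSD mice were not sleep deprived and were collected at the same time. Hippocampi of 2 mice were pooled for each library, which gave 5 NSD libraries (replicates 2, 3, 4, 5 and B) and 6 SD libraries (replicates 1, 2, 3, 4, 6 and D). Both groups carried the same alleles, and no input RNA from before the immunoprecipitation was analysed here, so less *Cirbp* RNA per cell, fewer cells that contribute it and less of it on ribosomes cannot be told apart.

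Cirbp is a cold-inducible RNA-binding protein with an RNA recognition motif and a glycine-rich tail. Its RNA is known to rise with mild cooling and to fall with warming, it cycles over the day in many tissues with body temperature, and its protein binds transcripts of clock genes. Rbm3 is its closest relative and is also induced by cold.

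The gene lies on the plus strand at chr10:80165985-80172786 (GRCm38, GENCODE vM21) and overlaps no other annotated gene. GENCODE lists 7 transcripts, of which 2 are protein coding, 4 retain an intron and 1 is a target of nonsense-mediated decay. In the count table a read that overlapped several transcript models was tallied as ambiguous, so the row holds reads assigned to uc007gce.1 alone. Most rows have no gene name, and other models of *Cirbp* may be among them, so the values are those of this row and not of the whole gene. The stretch between the study's PCR primers for *Cirbp* is shown as a piece of its coding sequence. Both primers match 5 of the 7 transcripts, and in Cirbp-202 they frame 158 coding bases from exon 2 (chr10:80169847-80169916) into exon 3 (chr10:80170016-80170103), with the primer sites in capitals.
Cirbp amplicon: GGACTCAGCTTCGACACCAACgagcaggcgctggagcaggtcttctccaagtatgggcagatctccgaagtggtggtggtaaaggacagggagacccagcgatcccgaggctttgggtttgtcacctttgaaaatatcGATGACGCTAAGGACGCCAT

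The promoter is shown because *Cirbp* is named for its response to cold. TCCCCGCC is known as a mild-cold responsive element, and both strands were searched for it in the RefSeq promoter windows of 300 bases (GRCm38.p6). The letters occur in 1 of the 2 *Cirbp* windows, on the plus strand at chr10:80167592-80167599, and in 1768 of 32851 windows overall (5.38%). The 189 bases of that window before the start of Cirbp-202 (chr10:80167589-80167777) are given with the match in capitals. A match of letters is a description and not a measured site.
Cirbp promoter: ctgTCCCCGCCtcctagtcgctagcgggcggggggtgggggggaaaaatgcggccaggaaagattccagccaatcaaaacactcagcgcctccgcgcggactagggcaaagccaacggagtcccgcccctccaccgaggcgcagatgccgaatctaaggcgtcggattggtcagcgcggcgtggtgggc

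The libraries held 22074914 to 29549339 counted reads, of which the *Cirbp* row took 1517 to 2549. NSD replicate 2 stood apart, with 12.3% of its reads not aligned to a single place. No 2 libraries held identical counts.

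*Cirbp* was lower in every SD library than in every NSD library. The raw counts were 2092, 2413, 2314, 2549 and 2403 in NSD replicates 2, 3, 4, 5 and B. They were 1682, 1669, 1517, 1690, 1936 and 1702 in SD replicates 1, 2, 3, 4, 6 and D. The groups did not overlap even before any scaling, although the SD libraries included the 3 deepest.

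Scaled to CPM, the counts relative to library size, with upper-quartile factors, *Cirbp* measured 86.6, 104.3, 89.8, 106.8 and 100.05 CPM in the NSD libraries in the same order. It measured 57.1, 70.6, 58.5, 67.9, 69.4 and 61.2 CPM in the SD libraries. NSD replicates 2 and 4 and SD replicates 1 and 3 were the low libraries of their groups. The mean was 97.5 ± 8.91 CPM in NSD (SD, n = 5) and 64.1 ± 5.87 CPM in sleep deprived mice (SD, n = 6), so the SD level was 65.8% of the NSD level. The log2 fold change was -0.60 with a standard error of 0.0896, and 0.29 on the log2 scale separated the highest SD from the lowest NSD library. Leaving out any 1 library gave log2 fold changes from -0.64 to -0.57.

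**Figure D1:**
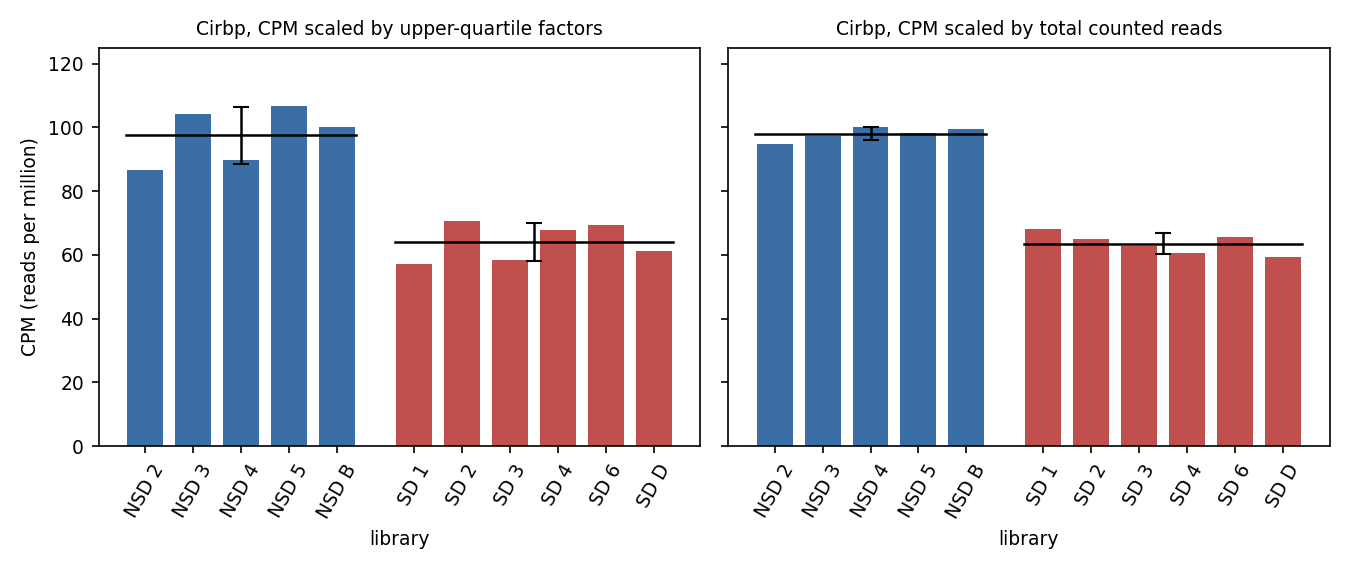
*Cirbp* in CPM (y axis) in each NSD library (blue bars) and SD library (red bars), scaled by upper-quartile factors (left) or by total counted reads (right). Black lines are group means and error bars are 1 SD; all SD bars are below all NSD bars in both panels, and the spread is smaller on the right.

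The next question was where *Cirbp* stood among all rows by change. By log2 fold change it ranked 1969 among the 14219 rows that were lower in SD, most rows with larger falls being of low abundance. Among the 15757 rows with at least 10 counts in every library it ranked 53 of 7079 lower rows, just after *Naca* (uc007hlc.2, log2 fold change -0.61) and just before the unnamed row uc007urr.1 (-0.60). Those neighbours measured 2.23 and 1.54 CPM in NSD, and their groups overlapped. Among the 1000 rows nearest to *Cirbp* in mean abundance, *Cirbp* had the largest fall, and 10 of these rows had groups that did not overlap, of which 1 was lower in SD.

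Change set against spread placed *Cirbp* higher. The difference of the group means (SD minus NSD) divided by the pooled within-group SD was -4.54, which ranked 9 of 29599 rows in either direction and 7 of the 15757 rows with at least 10 counts. Among these 15757 rows, *Cirbp* was 1 of 168 rows whose groups did not overlap (1.07%), of which 60 were lower in SD. That count was 326 with TMM factors (110 lower), 593 with total counts (210 lower) and 527 with factors from the rows with at least 10 counts (236 lower). The rows ahead of it were *Srsf5* (uc007obn.1), *A230056P14Rik*, *Pdrg1*, *Col22a1*, *Fnbp4* and *Wdr33*, and *Wnt9a* came next. *Fnbp4* reached its place with a log2 fold change of only -0.19 and a within-group SD of 0.0410, whereas *Cirbp* combined -0.60 with 0.133. These ranks restate the contrast on which *Cirbp* was selected and are a description.

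**Figure D2:**
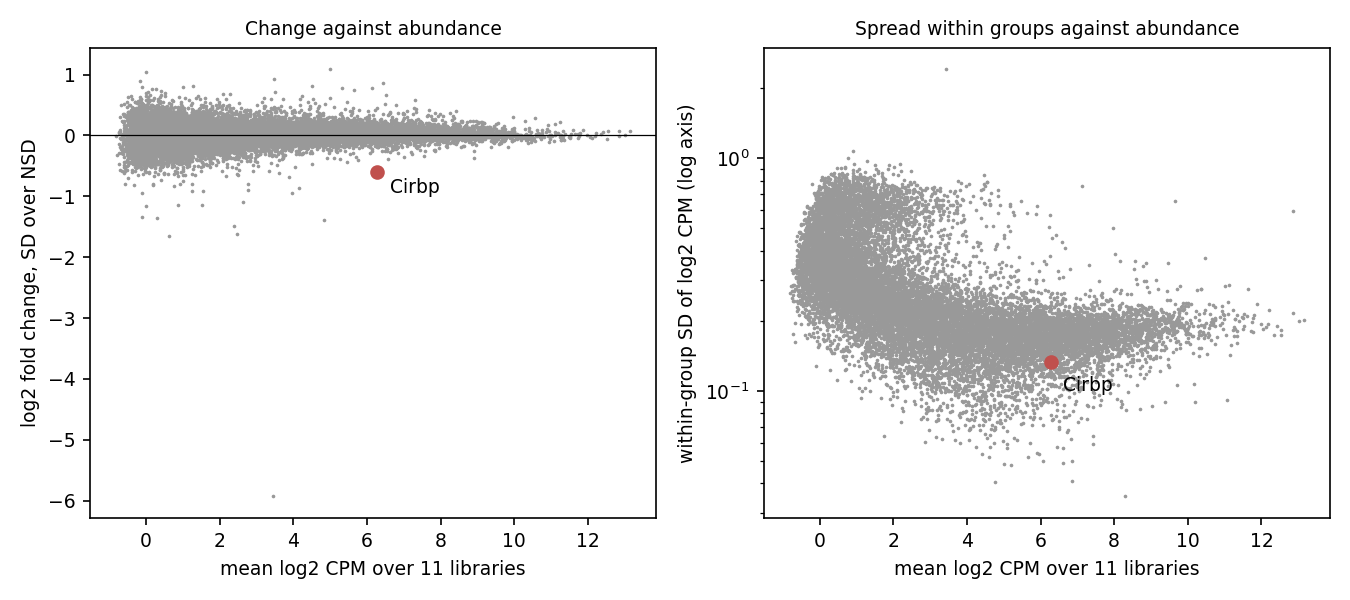
Log2 fold change of SD over NSD (left) and within-group SD of log2 CPM (right, log axis) against mean log2 CPM over 11 libraries, for the 15757 rows with at least 10 counts in every library (grey) and *Cirbp* (red). *Cirbp* is below the rows of its abundance in the left panel, and 15.9% of the 1000 nearest rows had a smaller spread.

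The spread of *Cirbp* within groups was almost equal in both. Its coefficient of variation was 9.14% in NSD and 9.16% in SD, and counting error alone would give 2.06% and 2.43%. The pooled SD of 0.133 on the log2 scale was below the median of 0.220 over the rows with at least 10 counts, and 7.86% of those rows had a lower one. By group, 18.7% of those rows had a lower SD in NSD and 8.04% in SD, and among the 1000 rows nearest in abundance 37% and 12.2% did.

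Most of this spread depended on how the libraries were scaled. With CPM by total counted reads, the coefficient of variation of *Cirbp* was 2.11% in NSD and 5.24% in SD, the first close to counting error. With upper-quartile factors from the rows with at least 10 counts it was 2.74% and 4.38%, with TMM factors 5.16% and 5.999%, and with DESeq2 size factors 6.97% and 7.05%. The difference between the groups moved little, from -0.60 to -0.64 in log2 CPM over these 5 scalings. Under TMM factors, total counts and the factors from rows with at least 10 counts, *Cirbp* ranked 1 of 15757 rows by difference over spread, at -7.56, -10.4 and -11.7.

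**Figure D3:**
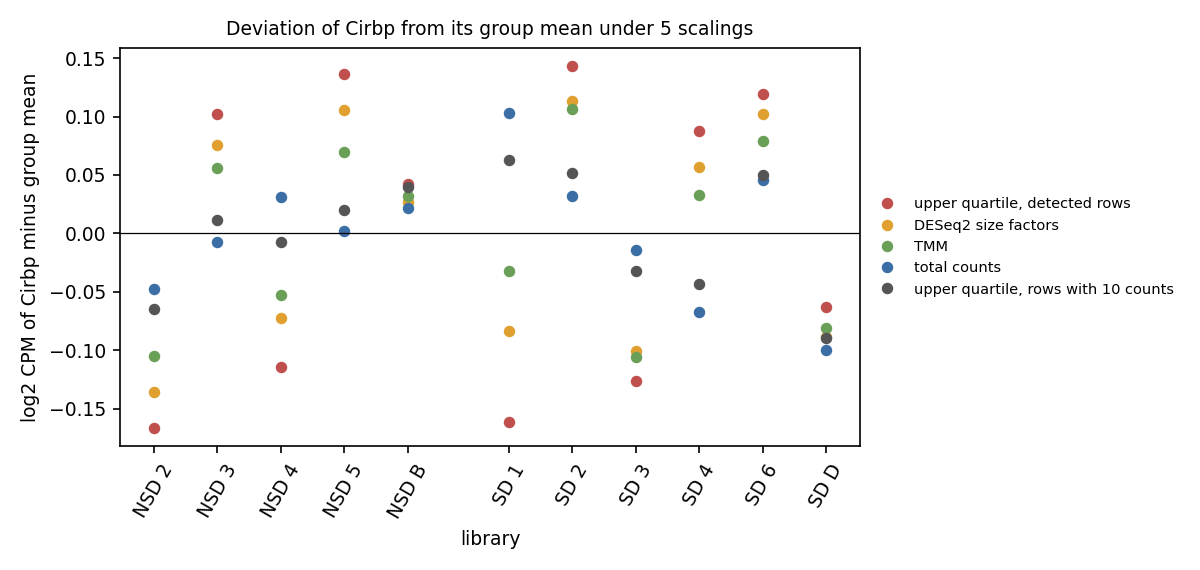
Deviation of *Cirbp* from its group mean in log2 CPM (y axis) for each library (x axis) under 5 scalings (colours). SD replicate 1 changes from the lowest SD library with upper-quartile factors from detected rows (-0.16) to the highest with total counts.

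It was then asked which rows followed *Cirbp* from library to library inside the groups, a comparison that does not use the group difference. In an edgeR quasi-likelihood fit with group and the deviation of *Cirbp* from its group mean, 9741 of 15756 rows were associated with *Cirbp* at FDR 0.05 (61.8%), 6716 in the same direction and 3025 in the opposite one. The rows with the closest positive relation among named genes were *Lamtor5*, a subunit of the Ragulator complex, *Gorasp1*, a Golgi stacking protein, *Mfsd12*, *Tmed8* and *Tvp23b*, with r from 0.961 to 0.967. Among the closest negative relations were those of *Btf3l4*, *Pex3*, needed for peroxisome formation, *Mical3* and the noncoding *Gas5*, with r from -0.973 to -0.944. Over all rows the extremes were the unnamed uc009man.2 (r = 0.979) and uc008xro.2 (r = -0.985).

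At a background of 61.8%, a relation with *Cirbp* did not set a row apart, and the number of associated rows changed with the scaling. TMM factors left 3522, of which 1383 went in the same direction and 2139 in the opposite one, so the larger share changed direction. Factors from the rows with at least 10 counts and total counts each left 0 at FDR 0.05 in edgeR's test, with 169 and 400 rows at an unadjusted p below 0.05. Adding the first principal component of the within-group deviations, which carried 63.7% of their variance, also left 0, with 541 rows at an unadjusted p below 0.05. The deviations of *Cirbp* gave r = 0.942 with that component, so this fit could hardly tell them apart. The deviations of *Cirbp* were themselves smaller under the factors from rows with at least 10 counts, with a pooled SD of 0.0543. The correlations moved as well: the median r over all rows went from 0.528 to -0.00972, and the share of rows with r above 0 from 68.3% to 48.6%. The cause was not tested.

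The library measures moved with *Cirbp* in the same way. Of 6 measures, 5 were related to the within-group deviations of *Cirbp* after adjustment over the 6 (two-sided exact permutation within groups, n = 11 libraries). The scaled *Cirbp* values contain the upper-quartile factor, so these tests cannot tell a relation with *Cirbp* from one with the factor. The share of reads outside annotated transcripts gave r = -0.889 (rho = -0.90, exact p = 0.000104, adjusted p = 0.000347), and r = -0.943 without the 2 libraries farthest from its median. The number of detected rows gave r = -0.873 (rho = -0.791, exact p = 0.00196, adjusted p = 0.00293), and r = -0.902 without the 2 farthest. Libraries with more reads outside transcripts and more detected rows thus had lower scaled *Cirbp* values inside each group.

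The share of ambiguous reads gave r = 0.818 (rho = 0.809, exact p = 0.000116, adjusted p = 0.000347) and r = 0.944 without 2 libraries. The first principal component gave r = 0.942 (rho = 0.845, exact p = 0.000544, adjusted p = 0.00109) and r = 0.964 without 2. Counted reads gave r = 0.684 (rho = 0.636, exact p = 0.0352, adjusted p = 0.0423) and r = 0.850 without 2, and its rho did not pass (adjusted p = 0.0652). The share of reads not aligned to a single place did not pass (r = -0.428, rho = -0.164, exact p = 0.194, adjusted p = 0.194). It changed sign to r = 0.587 without NSD replicate 2 and SD replicate 3.

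The upper-quartile factor, which divides the counts and ran from 0.892 to 1.193, is part of the scaled *Cirbp* value, so a negative relation between them follows from the scaling where the unscaled share varies little. Their r was -0.911 and is given as a description. With factors from rows with at least 10 counts, 0 of the 6 measures passed the adjusted exact permutation test, and 1, the share of reads not aligned to a single place, had an unadjusted p below 0.05 (r = -0.462, exact p = 0.041, adjusted p = 0.246).

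Genes of pathways linked to *Cirbp* were compared in the same manner. The lists held clock genes, heat shock proteins, endoplasmic reticulum chaperones, immediate early genes, splicing and RNA-binding factors, and *Rbm3*, which gave 55 named rows with at least 10 counts in every library. With upper-quartile factors 23 of the 55 passed, after adjustment over the 55 relations (exact permutation within groups), 22 in the same direction as *Cirbp* and 1 in the opposite one. This share does not exceed the 61.8% of all rows associated with *Cirbp* in edgeR's fit, a different test, so nothing is read from it about the lists. The 23 were 5 of 11 clock rows, 7 of 12 heat shock rows, 8 of 13 chaperone rows, 2 of 10 immediate early rows and 1 of 8 splicing rows. The median r was 0.64 over the 55 rows, beside 0.528 over all 15756 rows, of which 68.3% had r above 0.

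Of the 3 named transcripts of the clock repressor *Cry2*, 2 had at least 10 counts in every library, and these went opposite ways. *Cry2-201* followed *Cirbp* (r = 0.872, rho = 0.873, exact p = 0.000625, adjusted p = 0.00692), with r = 0.873 without the 2 libraries in which *Cirbp* lay farthest from its median. *Cry2-202* ran against it (r = -0.931, rho = -0.836, exact p = 0.000961, adjusted p = 0.00692), with r = -0.889 without them. *Rbm3*, the relative of *Cirbp*, gave r = 0.130 (rho = 0.0545, exact p = 0.716, adjusted p = 0.743). With factors from the rows with at least 10 counts, 0 of the 55 passed the exact permutation test and 0 had an unadjusted p below 0.05, *Cry2-201* gave r = -0.108 and *Cry2-202* r = -0.15, and the median r was -0.035. With TMM factors 0 passed and 14 had an unadjusted p below 0.05, with r = 0.657 for *Cry2-201* and -0.80 for *Cry2-202*. With DESeq2 size factors 15 of the 55 passed, 13 in the same direction and 2 in the opposite one. These included *Cry2-201* (r = 0.775) and *Cry2-202* (r = -0.883).

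**Figure D4:**
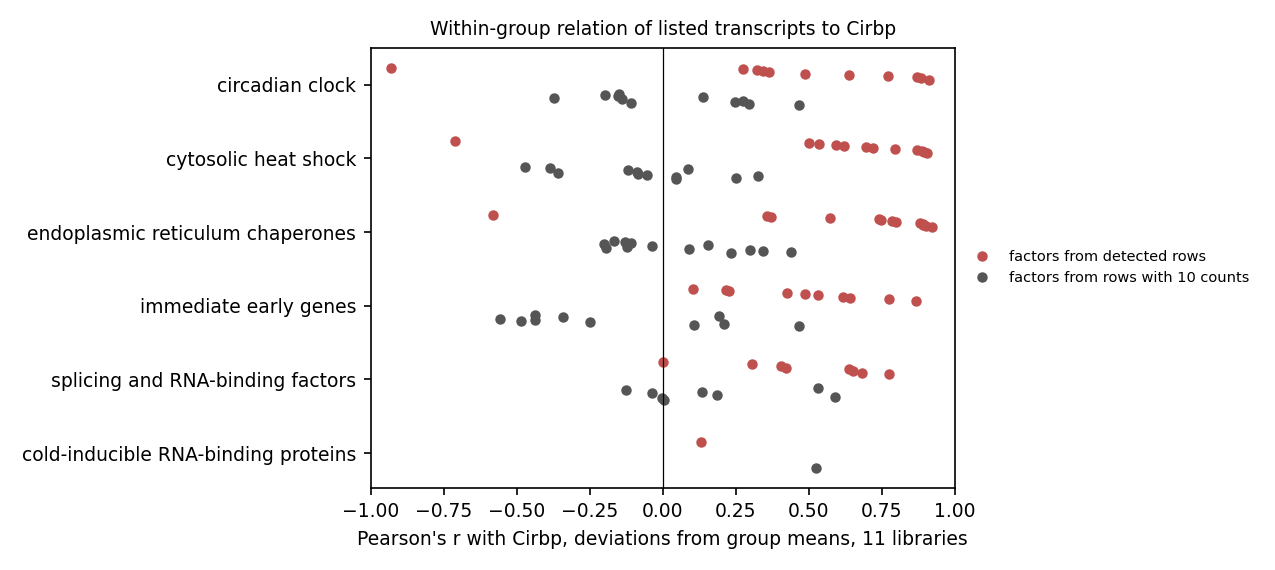
Pearson's r between *Cirbp* and each of 55 listed rows (x axis; deviations from group means, 11 libraries), by gene list (y axis), with upper-quartile factors from detected rows (red) or from rows with at least 10 counts (grey). With the first, 51 of the 55 points are above 0, and with the second 26.

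Over all 11 libraries with group means kept, the rows most like *Cirbp* by Pearson's r of log2 CPM were *Wnt9a*, a secreted signalling ligand (r = 0.965), *Sars*, a seryl-tRNA synthetase (0.943), *Erf*, a transcriptional repressor (0.934), *Prkab1*, an AMPK subunit (0.932), and the splicing factor *Srsf5* (uc007obn.1, 0.931). These r values contain the group difference and are a description. The most opposite were *Gm12940* (-0.977), the nuclear RNA methylation reader *Ythdc1* (-0.926), the mitochondrial superoxide dismutase *Sod2* (-0.913), *1700016P03Rik* (-0.908) and *D14Abb1e* (-0.905). With factors from rows with at least 10 counts, *Wnt9a* (0.974) and *Erf* (0.953) were again among the 5 most alike, and none of these 5 opposite rows was among the 5 most opposite.

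*Wnt9a* rested on few reads, 14 to 41 per library, against 1517 to 2549 for *Cirbp*. It measured 1.08, 1.64, 1.24, 1.72 and 1.42 CPM in NSD and 0.679, 0.761, 0.540, 0.723, 0.609 and 0.503 CPM in SD, in the replicate order used above. Like *Cirbp*, it had no overlap between the groups. Its log2 fold change was -1.15, and it did not pass edgeR's quasi-likelihood test over all rows (FDR = 0.0789), but passed with the filter of 10 counts and its factors (FDR = 0.00307). Because the r that chose *Wnt9a* contains the group difference, these values restate the choice and are no separate evidence.

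**Figure D5:**
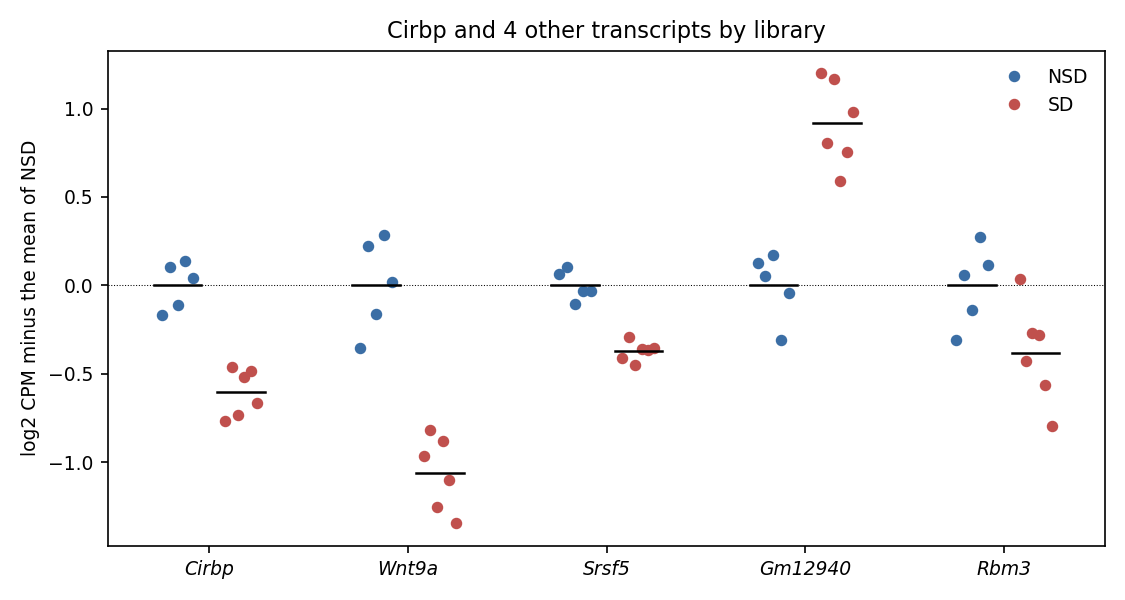
Log2 CPM minus the NSD mean (y axis) for *Cirbp* and 4 other transcripts (x axis) in each NSD (blue) and SD (red) library, with group means as black lines. The groups do not overlap for *Cirbp*, *Wnt9a*, *Srsf5* (uc007obn.1) and *Gm12940*, and overlap for *Rbm3*.

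The other genes of these pathways were compared between SD and NSD. Over all rows 15 of 29599 passed FDR 0.05 in edgeR's quasi-likelihood test (0.0507%), 13 higher and 2 lower. This balance depended on single libraries, with 7 higher and 12 lower without SD replicate 2, and 62 higher and 7 lower without SD replicate 1. With only the 15757 rows with at least 10 counts in every library, 311 passed (1.97%), 200 higher and 111 lower. That fit also recomputed the upper-quartile factors on the rows kept, so the filter and the scaling changed together, and all rows gave 62 calls with TMM factors (51 higher, 11 lower) and 271 with no factors (204 higher, 67 lower). Rows could be named mostly where the study's tables list them with a small p in this contrast, so the counts and medians over the lists are not independent evidence of a change. Counts with the filter of 10 counts follow each main count. With filterByExpr, 191 of 19228 rows were called, 132 higher and 59 lower. Among listed rows it called 2 of 13 clock, 1 of 8 splicing and 7 of 14 chaperone rows. It also called 3 of 13 heat shock and 3 of 10 immediate early rows. In each list these were fewer than with the filter of 10 counts, and in the same direction.

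*Rbm3* did not pass either test. It measured 0.786, 1.04, 0.892, 1.21 and 1.08 CPM in NSD and 1.02, 0.719, 0.810, 0.803, 0.645 and 0.539 CPM in SD. The groups overlapped, because SD replicates 1, 3 and 4 lay within the NSD range, and the row had 15 to 30 counts per library. Its log2 fold change was -0.40 with a standard error of 0.235.

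Of 23 clock genes, 10 were named, with 13 rows, of which 9 were lower in SD and 0 passed the test over all rows (with the filter of 10 counts, 3 of 11 rows passed, all lower). The median log2 fold change of the 13 rows was -0.19, beside 0.01 over all rows, most of which are unnamed and were not picked by a small p. *Per1-202*, of the light-responsive clock gene, gave -0.64 (FDR = 0.238 from edgeR's test over all rows, 0.0237 with the filter), *Rora* -0.62, *Nr1d1*, which encodes REV-ERBα, -0.26 (FDR = 0.719 and 0.04999 in edgeR's test) and *Cry2-201* -0.19 (FDR = 0.9999 and 0.00274). These 3 with an FDR are the rows that passed with the filter. The highest values were 0.53 for *Nfil3* and 0.23 for *Tef*.

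Of 41 splicing and RNA-binding factors, 7 were named, with 8 rows, of which 6 were lower in SD and 0 passed (2 of 8, both lower, with the filter of 10 counts). Their median was -0.23, with *Srsf5* at -0.50 (uc007obq.1) and -0.38 (uc007obn.1) at one end and *Srsf10* at 0.41 and *Rbm39* at 0.23 at the other. *Cirbp*, at -0.60, lay below all of these 8 rows.

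The stress and activity lists lay on the other side. Of 15 endoplasmic reticulum chaperones, 12 were named and all 14 rows were higher in SD, with a median of 0.34, and 1, *Creld2*, rose past the threshold (log2 fold change 0.48, FDR = 0.0439 from edgeR's test). This call held only without SD replicate 1 when single libraries were left out (1 of 11 fits, FDR from 0.00614 to 0.237 in edgeR's test) and was lost in the libraries labelled with a number (FDR = 0.683). The highest values were those of *Sdf2l1* (0.59) and *Manf-202* (0.49) and the lowest those of *Dnajb11* (0.19) and *Pdia3* (0.22). With the filter of 10 counts 9 of 13 rows passed, all higher. Of 24 heat shock genes, 9 were named, and 10 of 13 rows were higher, with a median of 0.20, of which 0 passed (4 of 12, all higher, with the filter of 10 counts). *Dnajb5-201* (0.41) and *Dnajb4-202* (0.38) were highest, and *Hspb1* (-0.28) and *Dnajb5* uc008sop.1 (-0.15) lowest. Of 16 immediate early genes, 9 were named and all 10 rows were higher, with a median of 0.49, and *Homer1-204*, from the gene of a postsynaptic scaffold protein, rose by 0.78 (FDR = 0.0139 from edgeR's test). That call held in 9 of 11 fits with a library left out, was lost without NSD replicate 4 (FDR = 0.0655 in edgeR's test) and without NSD replicate B (FDR = 0.0994), and was lost in the libraries labelled with a number (FDR = 0.203). With the filter of 10 counts 4 of 10 rows passed, all higher, and *Fos* gave 1.09 (FDR = 0.052 from edgeR's test over all rows, 0.0315 with the filter). The lowest values were those of *Homer1* uc007rlc.3 (0.11) and *Btg2* (0.17).

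Markers of the cells in the libraries could be read only in part. Of 8 excitatory markers 2 were named, and their summed level, nearly all of it *Neurod2*, ran from 304.2 to 389.1 CPM in NSD and from 284.4 to 453.9 CPM in SD. They differed in opposite directions without passing the test, *Neurod2* by a log2 fold change of 0.20 (336 ± 37.7 CPM in NSD, n = 5, and 385 ± 63.1 CPM in SD, n = 6) and *Camk2a* by -0.41 (2.51 ± 0.167 and 1.89 ± 0.340 CPM). The *Camk2a* row (uc008fbh.2) holds only reads assigned to that model, so it does not give the level of the whole gene. Of 10 inhibitory markers 2 were named, *Gad2* and *Slc32a1*, and all 4 rows were lower in SD without passing the test. Their summed level ran from 22.3 to 101.05 CPM in NSD and from 14.9 to 46.8 CPM in SD, where 5 of the 6 libraries lay below every NSD library. The part of inhibitory neuron RNA in the lower *Cirbp* level was not tested. Of 7 astrocyte markers 1 was named, with 0.993 to 1.46 CPM in NSD and 1.10 to 1.73 CPM in SD, and of 8 oligodendrocyte markers 1, *Mbp*, with 167.4 to 194.8 CPM in NSD and 178.2 to 229.8 CPM in SD. *Mbp* did not pass over all rows (log2 fold change 0.21), but was called higher in SD with the filter of 10 counts, as it was with filterByExpr, and its part in the *Cirbp* level was not tested. No microglial or endothelial marker was named.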

How the data were processed

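The authors trimmed the reads with Trimmomatic 0.36, aligned them to mm10 with STAR 2.7.5 (versions from the submitters' processing notes), and deposited raw HTSeq counts per UCSC transcript, with reads that overlap several transcripts left out. The strand setting of the counting is not given in the sources used here. The 5 tallies of reads not counted were left out of library sizes and tests.

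The member and the lists were chosen with earlier results of these data known. Rows carry no gene names, so 2255 rows (2111 genes) were named by a unique match of their edgeR statistics to the study's supplementary tables, which were used for names only, and 2 rows named differently by 2 tables stayed unnamed. Columns whose names say SID were taken as the SD samples of the same number or letter.

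Differential expression used edgeR 4.0.16 in R 4.3.3, with upper-quartile factors over rows detected (1 count or more) in 5 or more libraries, the two-sided quasi-likelihood test, Benjamini-Hochberg adjustment at FDR 0.05, and log2 CPM with a prior count of 2. Relations inside groups used deviations from group means and all 86400 orders of libraries within groups, whose smallest p is 1.16e-05. The units of the tests are pools of 2 mice, and the spread between pools also depended on the scaling. Alternatives were TMM, DESeq2 1.42.0, limma 3.58.1, other filters, the likelihood ratio test, single libraries left out and, added after seeing the data, factors from rows with at least 10 counts and, for results other than the *Cirbp* difference, no factors. The filter of 10 counts between SD and NSD also recomputed the factors on the rows it kept. Only the edgeR fits were tried on simulated counts, for rows with at least 10 counts, factors from those rows and independent noise in each row. That setting differs from the main fits, so it does not show how they behave when rows vary together. Named genes were *Cirbp*, *Rbm3*, *Nr1d1*, *Per1* and *Cry2*, the 2 highest and 2 lowest changes of a list, the closest rows to *Cirbp* (1 of which is not reported here), and its neighbours in rank. *Creld2*, the marker genes, the rows ahead of *Cirbp* by change over spread and those most opposite to it over all libraries were named after their values were seen. None of the 6 coding genes within 50 kb had a named row. Figures were drawn with matplotlib in Python.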

Additional observations from a re-analysis of the deposited data

Results flagged for a closer look

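Of 94 sets of values (a transcript or library measure in 1 group), 6 held a library that lay far from the others by Dixon's criterion, and chance gives about 1 in 20. No *Cirbp* value was among them. In NSD replicate 2 the share of reads not aligned to a single place was 12.3%, against 5.90% to 6.09% in the other NSD libraries, and the share of ambiguous reads was 37.2%, against 47.6% to 51.7%. The summed level of the inhibitory markers in SD replicate 2 was 46.8 CPM, against 14.9 to 19.4 CPM in the other SD libraries. *Dnajb4-202* in SD replicate 1 measured 9.89 CPM, against 12.8 to 14.3 CPM. *A230056P14Rik*, which ranked 2 by change over spread where *Cirbp* ranked 7, measured 3.46 CPM in SD replicate 1, against 2.85 to 3.00 CPM. *Srsf5* (uc007obq.1) in SD replicate D measured 0.359 CPM, against 1.15 to 1.54 CPM.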

How the results depend on the processing

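The difference of *Cirbp* kept its direction under all 18 alternatives, with log2 values from -0.64 to -0.51 (single libraries left out, -0.64 to -0.57). The calls between SD and NSD were 62 with TMM factors, 271 with no factors, 311 with at least 10 counts in every library, 191 with filterByExpr, 135 with DESeq2, 65 with the likelihood ratio test and 0 in the libraries labelled with a number (887 at an unadjusted p below 0.05), and 1 to 69 with single libraries left out. That range ran from 1 without NSD replicate B to 69 without SD replicate 1. The rank of *Cirbp* among lower rows was 49 with at least 10 counts and 173 with filterByExpr, where fewer low rows enter, and 1651 to 3154 with single libraries left out. The pooled SD of *Cirbp* was 0.0817 with TMM factors, 0.0599 with no factors and 0.0543 with at least 10 counts, and 0.125 to 0.140 with single libraries left out. Rows associated with *Cirbp* numbered 3522 with TMM factors and 0 with the principal component, with factors from rows with at least 10 counts and with no factors, and 8172 to 9924 with single libraries left out. Listed relations numbered 0 with TMM factors, 15 with DESeq2 size factors and 0 with factors from rows with at least 10 counts, by r and by rho, and 15 (without SD replicate 1) to 23 with single libraries left out. Library measures related to *Cirbp* numbered 0 with factors from rows with at least 10 counts.

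Libraries with the same replicate number did not deviate together (r = -0.545, -0.592 and -0.664 for numbers 2, 3 and 4). These r values cannot show whether the numbers pair samples, because the first principal component carried 63.7% of the within-group variance. With a replicate block over these 6 libraries, 6 rows were called and the *Cirbp* difference was -0.51, and without the block the same 6 libraries gave 3 and -0.51.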

Other observations

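With factors from rows with at least 10 counts, a setting chosen after seeing the data, the named rows closest to *Cirbp* inside the groups were *Tspan33* (r = 0.839) and, in the opposite direction, *Sox4*, a transcription factor of neuronal development (r = -0.83). Over all rows the extremes were the unnamed uc008ltm.2 (r = 0.916) and uc029slv.1 (r = -0.864), and r was 0.799 and -0.774 without the 2 libraries in which *Cirbp* lay farthest from its median. None of these 4 rows passed edgeR's test over all rows. Without the same 2 libraries, r was 0.850 for *Tspan33* and -0.696 for *Sox4*. *Lamtor5* (r = 0.768) was the only gene among the 5 closest positive named rows under both sets of factors, and without those 2 libraries its r was 0.347.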
